A study of Mus musculus with 4 samples.

Results

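The 10 genes described here are immediate early genes outside the AP-1 family: Egr1, Egr2 and Egr3, Nr4a1, Nr4a2 and Nr4a3, Ier2, Ier3, Btg2 and Myc. They were chosen by name, with earlier results of these data known, from the 22456 genes of the deposited expression table. Each of the 10 was found there. Expression was measured by RNA sequencing in fibroblasts from mammary tumours of Balb/c mice, collected 8 days after 4T1 mouse mammary carcinoma cells were injected into the fat pad. In the DMSO group (2 libraries) the injected 4T1 cells had been kept in DMSO, the solvent. In the GSK group (2 libraries) they had been kept for 5 days in the compound GSK269962A at 5 µM. The cancer cells received the compound before injection, and the fibroblasts come from the untreated host. The fibroblasts are the cells left after magnetic removal of cells bound by antibodies to human CD2, CD326, CD31 and CD45, so they are a fraction defined by depletion and not by a fibroblast marker. The number of animals behind each library is not stated, nor whether replicates are separate animals. The p-values therefore rest on the spread between these samples, which may be technical.

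Immediate early genes are transcribed within minutes of a stimulus from factors already present in the cell, with no need for new protein. Growth factors, stress, cell stretch and the enzymatic digestion of tissue all switch them on. EGR proteins are zinc finger transcription factors, and their genes are classic targets of serum response factor and its ETS partners downstream of ERK. NR4A proteins are nuclear receptors that act without a known hormone, and their genes respond to cyclic AMP through CREB as well as to serum. Myc drives growth and ribosome synthesis, Btg2 restrains proliferation and promotes shortening of mRNA tails, Ier3 modulates survival and NF-kB signalling, and Ier2 is a small nuclear protein induced by growth factors.

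Each gene has a single place in the GENCODE M21 annotation of GRCm38 (mm10), and none overlaps another annotated gene. Egr1 (ENSMUSG00000038418) lies on chromosome 18 from 34859823 to 34864984, Egr2 (ENSMUSG00000037868) on chromosome 10 from 67535475 to 67542188 and Egr3 (ENSMUSG00000033730) on chromosome 14 from 70077203 to 70082614. Nr4a1 (ENSMUSG00000023034) lies on chromosome 15 from 101254269 to 101274795, Nr4a2 (ENSMUSG00000026826) on chromosome 2 from 57106830 to 57124003 and Nr4a3 (ENSMUSG00000028341) on chromosome 4 from 48045153 to 48086447. Ier2 (ENSMUSG00000053560) lies on chromosome 8 from 84661331 to 84662852, Ier3 (ENSMUSG00000003541) on chromosome 17 from 35821684 to 35822923, Btg2 (ENSMUSG00000020423) on chromosome 1 from 134075170 to 134079120 and Myc (ENSMUSG00000022346) on chromosome 15 from 61985391 to 61990374. No transcript of the 10 genes matched another gene at 98% identity or more over at least 200 bases.

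Expression is given in the authors' normalised log2 units, in which a difference of 1 is a doubling. They appear shrunken towards each gene's mean, most at low expression, so differences are understated. Read depth was not given in the sources used here. Fibroblast genes (9, Col1a1 and Pdgfra among them) averaged 15.36 to 15.51 in the 4 libraries, and pericyte and smooth muscle genes (7) 10.55 to 10.85. Marker lists of the depleted cell types averaged 2.66 to 4.43, with Epcam at 0.32, the T cell gene Cd3d at 0.01 to 0.03, the macrophage gene Adgre1 at 0.78 to 0.81 and the endothelial gene Cldn5 at 0.29 to 0.31. Ptprc, which encodes CD45, was at 3.77, 3.77, 3.91 and 3.77. Single members of these lists stood far above the averages: the leukocyte gene Cd53 at 10.46 to 11.81, Cd3e of T cells at 8.405 to 8.998, the epithelial gene Krt19 at 8.562 to 8.996 and Csf1r of macrophages at 8.14 to 8.39. A lower share of one cell type and less RNA per cell cannot be told apart in these bulk libraries.

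All 10 early genes were expressed well above the filter for testing, a mean of log2 of 10 (3.32). On the log2 scale corrected for exon length per kilobase, DMSO levels ran in the order Ier3 (13.003), Egr1 (12.71), Ier2 (11.39), Nr4a1 (10.93), Btg2 (10.67), Myc (10.51), Egr2 (9.48), Nr4a3 (7.12), Nr4a2 (6.40) and Egr3 (5.76). The GSK order was the same, with Ier3 (12.55) and Egr1 (12.46) closer together than their spread, as were Nr4a1 (10.48) and Btg2 (10.46). In DMSO, the levels of Btg2 and Myc lay within the summed spread of the pair.

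GSK was compared with DMSO to ask how these genes differ in fibroblasts of tumours whose cancer cells had been pre-treated. By estimate, 9 of the 10 early genes were lower in GSK, and Ier2 was level at -8.89e-06 (log2). A negative estimate was found in 50.5% of all tested genes. Both GSK libraries were below both DMSO libraries in those 9 early genes. In the table as a whole, 24.5% of tested genes had both GSK libraries below both DMSO libraries. Only Nr4a3 passed an adjusted p of 0.05 over the 14548 genes tested (limma), where 0.282% of tested genes passed, 0.131% lower and 0.151% higher in GSK. Myc, Nr4a1 and Ier3 had larger or like-sized estimates but missed the threshold, and Ier2 was level between the groups. At an unadjusted p under 0.05, 7 of the 10 were lower, beside 8.13% of all tested genes. The median change over the 10 genes was -0.24 (log2), a 1.18-fold lower level, and the median over all tested genes was 0.00.

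**Figure D1:**
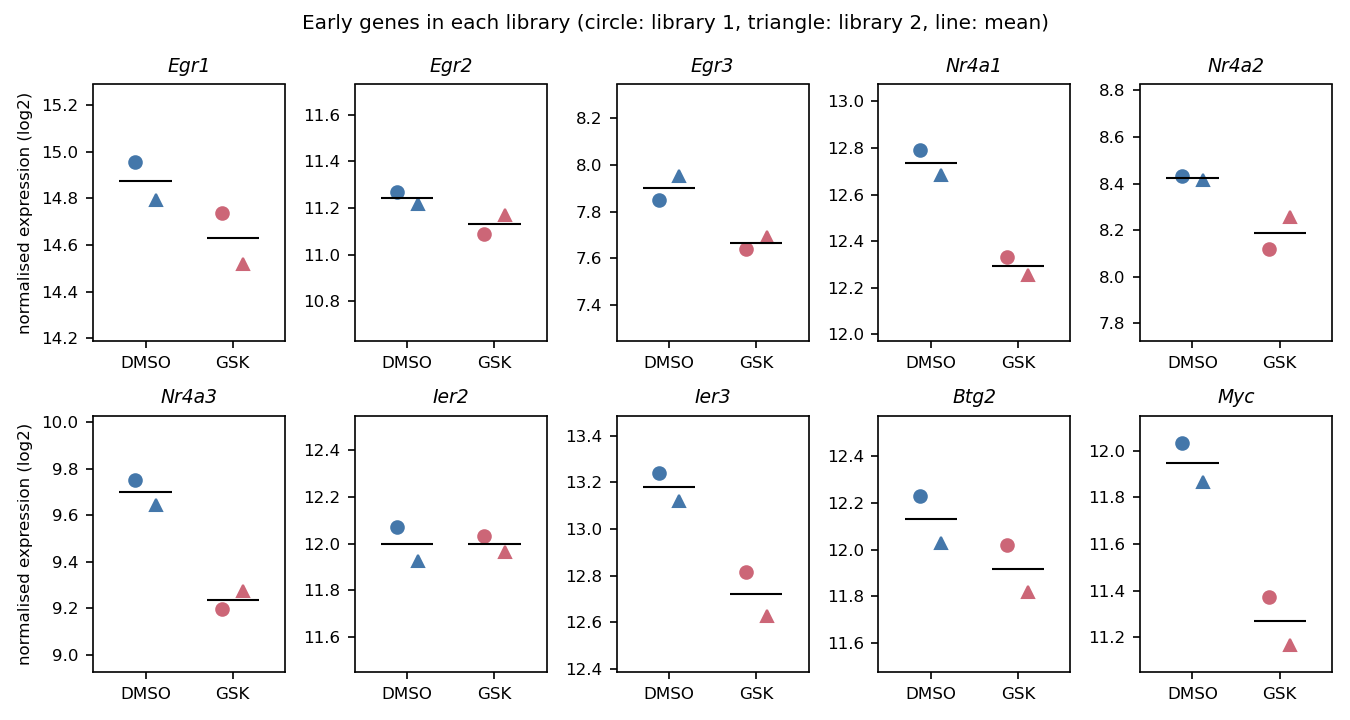
Normalised expression (log2, vertical axis) of each early gene in the 2 DMSO and 2 GSK libraries, each panel spanning the same height; circles are library 1, triangles library 2 and lines the group means. In 9 panels both GSK points lie below both DMSO points, with the widest gap for Myc, while the points of Ier2 overlap.

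The NR4A receptors were lower in GSK by estimate in all 3 members, and Nr4a3 fell. In library 1 and library 2 of DMSO, Nr4a3 stood at 9.75 and 9.64 (log2), against 9.20 and 9.28 in the GSK pair; the values of the other genes are given in the same order. The gap between the lowest DMSO and the highest GSK library, 0.37, was wider than the distance between the replicates of either group. The change of Nr4a3 was -0.46 ± 0.06 (SE), 1.38-fold lower, with a 95% interval from -0.59 to -0.33 and an adjusted p of 0.0474. Its call rests narrowly on the setting. The adjusted p was 0.0524 with a filter at a mean of log2 of 50 and 0.222 with no filter. After quantile normalisation it was 0.0638, and 0.0763 with a variance prior without trend. It was 0.0342 with a robust variance prior, 0.0411 after centring each library on its median and 0.00189 with the replicate number as a block. With each library left out the change ran from -0.51 to -0.41. Nr4a1, the most highly expressed of the 3 per length, had 12.79 and 12.68 in DMSO and 12.33 and 12.25 in GSK. Both groups were again tight and apart, and the change of -0.44 ± 0.06 (interval -0.59 to -0.30) had an adjusted p of 0.0546. The call of Nr4a1 also turned on the setting. Its adjusted p was 0.0434 with a robust variance prior, 0.0483 after centring each library on its median and 0.000586 with the replicate number as a block. It was 0.222 with no filter, 0.0573 with the filter at log2 of 50, 0.0611 after quantile normalisation and 0.0763 with a prior without trend. Nr4a2 had 8.43 and 8.42 in DMSO and 8.12 and 8.26 in GSK, a change of -0.24 ± 0.06 (interval -0.38 to -0.10, adjusted p = 0.137). Nr4a1 and Nr4a3 kept nearly the same distance from each other in DMSO (3.039 and 3.040) and a like one in GSK (3.132 and 2.978). Nr4a2 minus Nr4a3 was -1.319 and -1.227 in DMSO and -1.081 and -1.020 in GSK, so the distance was smaller in both GSK libraries. Whether Nr4a2 differs from its relatives in its change was not tested.

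The DNA upstream of the NR4A starts is shown because CREB, the classic activator of these genes, binds the cyclic AMP response element (CRE). The RefSeq promoter table for GRCm38.p6 held entries for 6 of the 10 genes, all but Egr1, Egr3, Ier2 and Myc. The 250 bases before each transcript start were searched, leaving out the bases after it. Each NR4A window held 4 matches to the CRE half-site TGACG on either strand. Of 32851 such windows of 250 bases in the table, 17.8% held at least 1 such match and 0.688% held 3 or more. Among the 3037 windows with at least 70% G and C, which include those of Nr4a1 and Nr4a2, 25.8% held 1 and 1.65% held 3 or more. Half-sites were not confined to the NR4A genes. The Btg2 window held 1 full CRE, TGACGTCA (1.55% of windows), and windows of Egr2 held half-sites too. The Ier3 window held no half-site. Any link between these sites and the changes was not tested. The NR4A stretches are printed 5′ to 3′ on the gene's strand with half-sites in capitals, and stop before any annotated exon. The Nr4a1 stretch (chr15:101266596-101266845, plus strand) lies within the annotated gene, in an intron of its longer transcripts, just before an internal start. The Nr4a2 stretch (chr2:57124004-57124253, minus strand) and the Nr4a3 stretch (chr4:48045055-48045152, plus strand, with 3 of the 4 matches) lie directly upstream of their genes.
Nr4a1: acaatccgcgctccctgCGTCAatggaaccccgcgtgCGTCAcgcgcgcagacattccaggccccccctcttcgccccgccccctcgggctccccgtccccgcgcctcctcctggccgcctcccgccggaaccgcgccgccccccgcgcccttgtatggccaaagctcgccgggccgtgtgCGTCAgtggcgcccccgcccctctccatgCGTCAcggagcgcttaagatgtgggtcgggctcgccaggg
Nr4a2: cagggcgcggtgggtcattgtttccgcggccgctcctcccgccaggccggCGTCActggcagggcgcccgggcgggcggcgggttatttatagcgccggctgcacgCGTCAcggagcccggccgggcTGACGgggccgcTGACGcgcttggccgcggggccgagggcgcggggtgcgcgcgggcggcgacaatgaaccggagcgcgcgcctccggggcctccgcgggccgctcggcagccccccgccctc
Nr4a3: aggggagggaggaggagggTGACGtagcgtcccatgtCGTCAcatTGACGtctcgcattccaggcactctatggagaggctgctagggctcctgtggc
The half-sites of Nr4a3 lie close together in this stretch, whereas those of Nr4a1 fall into a distal and a proximal pair. The motif bound by NR4A monomers, AAAGGTCA (1.34% of windows), was not among the letters of the windows held for the 6 genes, nor was the EGR site GCGTGGGCG (0.536% of windows). These matches describe sequence only and say nothing of which factor was bound.

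CREB factors and their coactivators, which act on such elements, were themselves near level in RNA. Their activity was not measured. None of 6 passed the threshold (median change -0.01), with Atf1 at -0.09 (adjusted p = 0.379), Creb1 at 0.08 (adjusted p = 0.533) and Crtc1 at -0.06 (adjusted p = 0.682). The retinoid X receptors, partners of Nr4a1 and Nr4a2 on DNA, were level too, with Rxra at 0.01 (adjusted p = 0.974) and Rxrb at 0.02 (adjusted p = 0.874), while Rxrg was below the filter at -1.01.

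The EGR factors were lower in GSK by estimate in all 3 members, by smaller amounts than Nr4a1 and Nr4a3, and none passed the threshold. Egr1, the founding member and a rapid sensor of serum and stress, had 14.96 and 14.79 in DMSO and 14.74 and 14.52 in GSK. Its groups were separated by only 0.06, less than the distance between replicates, and the change of -0.25 ± 0.10 had a wide interval (-0.49 to -0.01, adjusted p = 0.301). Without GSK library 2 the change of Egr1 was -0.14, and without GSK library 1 it was -0.35. Egr2, needed for myelination and induced in fibroblasts by serum, had 11.27 and 11.22 in DMSO and 11.09 and 11.17 in GSK. This was the smallest estimate among the 9 lower genes, -0.11 ± 0.05 (interval -0.23 to 0.00, adjusted p = 0.325). Egr3 had 7.85 and 7.95 in DMSO and 7.64 and 7.69 in GSK, with groups 0.16 apart and a change of -0.23 ± 0.05 (interval -0.37 to -0.10, adjusted p = 0.125). Egr3 was the only one of the 10 genes whose value was higher in DMSO library 2 than in DMSO library 1. The distance from Egr1 down to Nr4a1 was 2.167 and 2.107 in DMSO and 2.404 and 2.266 in GSK, so Nr4a1 stood further below Egr1 in both GSK libraries. That difference was not tested.

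Serum response factor acts on EGR genes through the CArG box. Egr1 and Egr3 had no promoter entry, so only Egr2 could be searched for it. Of the Egr2 windows, one for each RefSeq start, 4 of 5 held a match to this motif on either strand, where 1.47% of all windows did. In 3 overlapping windows it was the same match, beside a pair of CRE half-sites. One of these windows is shown (chr10:67537619-67537868, plus strand, within the annotated gene and free of exons, CArG box and half-sites in capitals). Any link between these sites and the change of Egr2 was not tested.
Egr2: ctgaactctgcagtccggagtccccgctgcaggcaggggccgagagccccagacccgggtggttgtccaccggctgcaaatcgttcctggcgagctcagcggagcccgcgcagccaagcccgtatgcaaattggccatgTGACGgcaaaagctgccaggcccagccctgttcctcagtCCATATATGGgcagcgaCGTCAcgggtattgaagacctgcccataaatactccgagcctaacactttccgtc
Like the EGR genes, other genes of the serum response factor pathway did not pass the threshold. Of Srf and 5 cofactors none passed (median change 0.10, and 3 of 6 had both GSK libraries above both DMSO libraries, beside 24.1% of tested genes). Elk3, an ETS partner of Srf, was at 0.17 (adjusted p = 0.156), Srf itself at 0.11 (adjusted p = 0.431) and Elk4 at 0.10 (adjusted p = 0.365). Egr4 and the corepressors Nab1 and Nab2, which bind EGR proteins, were at -0.04, 0.09 and 0.02 (adjusted p of 0.771, 0.490 and 0.870).

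**Figure D2:**
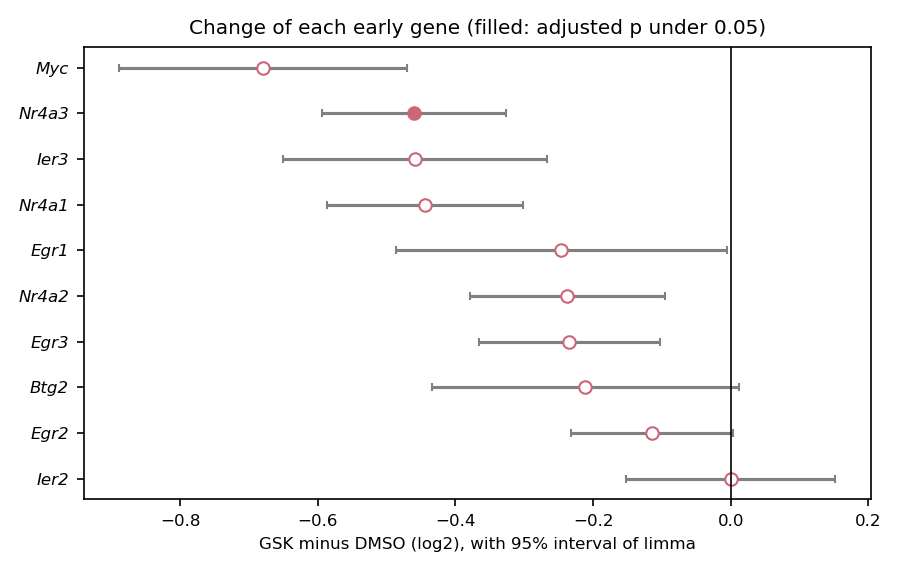
Change of each early gene (GSK minus DMSO, log2, horizontal axis) with its 95% interval from limma; the filled point passed an adjusted p of 0.05 and the open points did not. Nr4a3 is the filled point, Myc has the largest decrease by estimate at -0.68, and the intervals of Ier2, Egr2 and Btg2 reach or cross 0.

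The IER genes split. Ier3 had 13.24 and 13.12 in DMSO and 12.82 and 12.63 in GSK, with the groups 0.30 apart. Its change, -0.46 ± 0.08 (interval -0.65 to -0.27), matched that of Nr4a3 in size but had a larger spread in GSK and an adjusted p of 0.0703. Ier2 had 12.07 and 11.93 in DMSO and 12.03 and 11.96 in GSK. The GSK libraries of Ier2 lay between the DMSO libraries, so the groups overlapped, and the change of 0.00 ± 0.06 had an interval from -0.15 to 0.15 (adjusted p = 0.9999). A change of Ier2 as large as that of Ier3, Nr4a1 or Myc lies outside this interval. A pair of relatives outside the 10 genes were read beside them. Ier5, which acts with heat shock factor, fell from 12.20 and 12.15 to 11.78 and 11.69, a change of -0.44 ± 0.05 (adjusted p = 0.0474), while Ier5l was at 0.30 (adjusted p = 0.223). Ier5 missed the threshold under 6 of 11 alternatives: without DMSO library 1 (adjusted p = 0.159), without GSK library 2 (0.0907), with the filter raised to log2 of 50 (0.0524) or dropped (0.222), after quantile normalisation (0.0523) and with a prior without trend (0.0655).

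Btg2, an antiproliferative gene that p53 and growth signals both induce, had 12.23 and 12.03 in DMSO and 12.02 and 11.82 in GSK. DMSO library 2 and GSK library 1 of Btg2 were 0.01 apart, and the change of -0.21 ± 0.09 (interval -0.43 to 0.01, adjusted p = 0.332) was the size of the distance between replicates. None of the 4 other BTG and TOB genes tested passed. Btg1 was at -0.27 (adjusted p = 0.336), Tob1 at -0.25 (adjusted p = 0.194) and Tob2 at -0.13 (adjusted p = 0.235), while Btg3 was at 0.07 (adjusted p = 0.538), and the median of the 4 was -0.19. None of 8 CCR4-NOT subunits, the deadenylase complex that BTG proteins recruit, passed either (median 0.00), with Cnot1 at -0.07, Cnot2 at -0.07 and Cnot6l at 0.09. Of 13 other p53 targets none passed (median -0.01). Trp53inp1 was at 0.20 (adjusted p = 0.185), Cdkn1a, which encodes the p21 cell cycle inhibitor, at -0.29 (adjusted p = 0.268) and Phlda3 at 0.08 (adjusted p = 0.478).

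Myc had the largest difference of the 10 genes. It had 12.03 and 11.87 in DMSO and 11.37 and 11.17 in GSK, so its lowest DMSO library stood 0.49 above its highest GSK library. The change was -0.68 ± 0.09 (SE), 1.601-fold lower, with an interval from -0.89 to -0.47. Only 26 of the 14548 tested genes, Myc included, had an estimate this low or lower. The adjusted p was 0.0543, just above the threshold, and the replicates of each group were further apart than those of Nr4a3. Myc passed with a robust variance prior (0.0441), after centring each library on its median (0.0458) and with the replicate number as a block (0.000114). It did not pass with no filter (0.222) or with a filter at a mean of log2 of 50 (0.0573). Nor did it pass after quantile normalisation (0.0655) or with a variance prior without trend (0.0763). Ier2, whose groups overlapped, stood above Myc by 0.037 and 0.059 in DMSO and by 0.658 and 0.796 in GSK, on the uncorrected log2 scale where only the shift of this distance can be read.

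None of the 11 genes of the MYC network passed the threshold (median -0.01). Mycn, a paralogue expressed at 4.93, was at -0.12 (adjusted p = 0.202). Mxd4, which competes with Myc for the shared partner Max and represses its targets, was at 0.13 (adjusted p = 0.202), and Mlxip was at 0.11 (adjusted p = 0.327). Of 20 Myc targets in ribosome and nucleotide synthesis and growth none passed, and 17 had negative estimates (median -0.08), where 50.5% of all tested genes had a negative estimate. At an unadjusted p under 0.05, 6 of the 20 were lower and 2 were higher, beside 8.13% and 7.88% of all tested genes. Srm, spermidine synthase, was at -0.19 (adjusted p = 0.113) and Fbl, fibrillarin of the nucleolus, at -0.16 (adjusted p = 0.150). The cell cycle gene Ccnd2 was at 0.22 (adjusted p = 0.1002).

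Leaving out each library in turn kept a negative estimate in the 9 lower genes in each of the 4 runs. This sign was fixed in advance, because in those genes both GSK libraries lay below both DMSO libraries. Only the size of the estimate could vary. The smallest estimates came without DMSO library 1 or GSK library 2 for Egr1, Nr4a1, Ier3, Btg2 and Myc. For Btg2 the change was -0.11 in either of these runs and -0.31 without DMSO library 2 or GSK library 1. For Egr2 it ranged from -0.15 to -0.07. Myc stayed between -0.78 and -0.58, Nr4a1 between -0.50 and -0.39, Nr4a3 between -0.51 and -0.41 and Ier3 between -0.55 and -0.36. Ier2 took either sign, from -0.07 to 0.07.

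**Figure D3:**
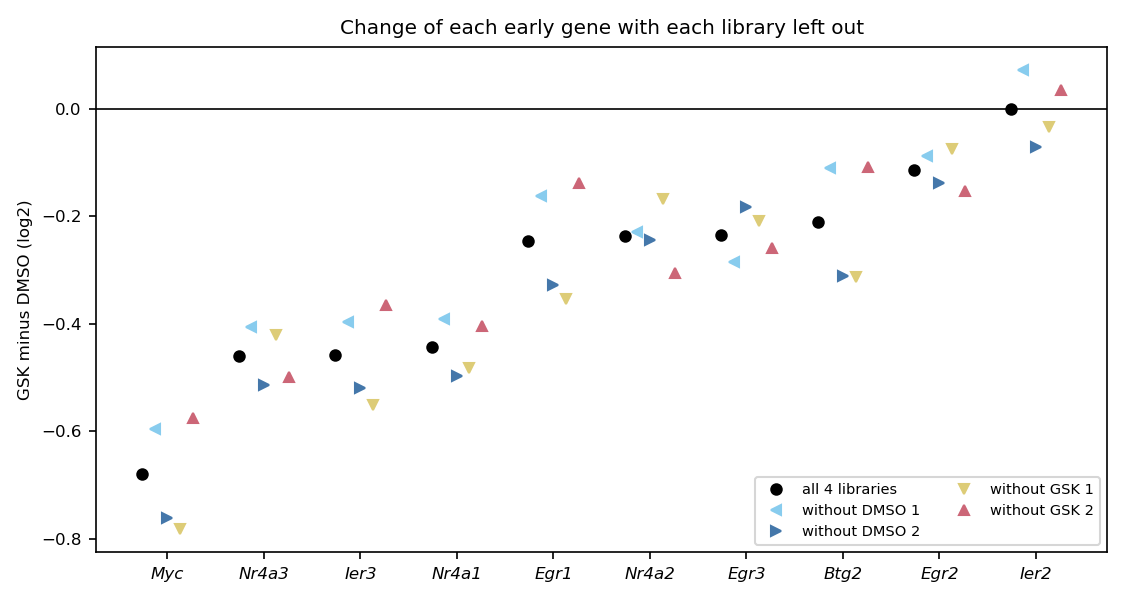
Change of each early gene (GSK minus DMSO, log2, vertical axis) from all 4 libraries (black circles) and with each library left out (coloured triangles). Every point of the 9 lower genes is below 0, as it must be where both GSK libraries lie below both DMSO libraries. These points run from -0.78 for Myc to -0.07 for Egr2, and those of Ier2 lie on both sides of 0.

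Early genes outside the 10 were then read from lists grouped by function, which were chosen with earlier results of these data known. Of 19 other immediate early genes tested, 1 passed lower, Sgk1, and none higher, beside 0.131% and 0.151% of all tested genes, and the median change was -0.31. In 13 of the 19 both GSK libraries were below both DMSO libraries, and in 1 both were above, beside 24.5% and 24.1% of all tested genes. Sgk1, a serum- and glucocorticoid-induced kinase, fell from 11.35 and 11.17 to 10.61 and 10.68, a change of -0.61 ± 0.07 (adjusted p = 0.0366). Sgk1 missed the threshold under 6 of 11 alternatives: without DMSO library 1 (0.0756), without GSK library 1 (0.0543), without GSK library 2 (0.0595), with no filter (0.222), after quantile normalisation (0.0555) and with a prior without trend (0.0655). Plk2, a polo-like kinase, was at -0.58 (adjusted p = 0.0543) and Gadd45b, a stress sensor upstream of p38, at -0.47 (adjusted p = 0.0567). Of 8 AP-1 genes none passed and all 8 had negative estimates, as had 50.5% of all tested genes, from -0.61 for Atf3 (adjusted p = 0.0831) to -0.15 for Fosl2 (adjusted p = 0.223), with Fosl1 at -0.26 (adjusted p = 0.157). Their median was -0.23, close to that of the 10 genes. Markers of other cell types also differed between the groups by estimate, though none passed the threshold. Cd53 was at 10.70 and 10.46 in DMSO and 11.81 and 11.15 in GSK, a change of 0.91 (adjusted p = 0.116). The 6 pan-leukocyte genes averaged 4.19 and 4.17 in DMSO and 4.43 and 4.28 in GSK, and the 3 tested members other than Cd53 had changes of only 0.03 to 0.07. All 3 tested epithelial or 4T1 genes had both GSK libraries below both DMSO libraries, as had 24.5% of all tested genes. Krt19 was at -0.29 (adjusted p = 0.157), Krt18 at -0.07 (adjusted p = 0.219) and Krt8 at -0.04 (adjusted p = 0.351). Krt18 and Krt8 were weakly expressed, with means of 4.37 and 3.59 over the libraries, and their differences were small. The other 3 genes of this list, Epcam, Cdh1 and Krt14, were below the filter and not tested. Cd3e was at -0.30 (adjusted p = 0.361). Of the 9 fibroblast genes Pdpn had the lowest estimate, -0.37 (adjusted p = 0.182), while their median was -0.001 and the highest 0.12. In 3 of the 9 both GSK libraries were below both DMSO libraries, and in 1 both were above, beside 24.5% and 24.1% of all tested genes. The pericyte and smooth muscle list had a mean of 10.55 in DMSO library 1 and 10.80, 10.80 and 10.85 in the others. Its 7 genes went both ways. In 3 both GSK libraries were above both DMSO libraries, and in 2 both were below, beside 24.1% and 24.5% of all tested genes. The 3 were Cspg4 at 0.49 (adjusted p = 0.126), Mcam at 0.34 (0.216) and Rgs5 at 0.27 (0.242). The 2 were Kcnj8 at -0.21 (adjusted p = 0.192) and Abcc9 at -0.12 (0.383). The part of these markers in the result was not tested.

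**Figure D4:**
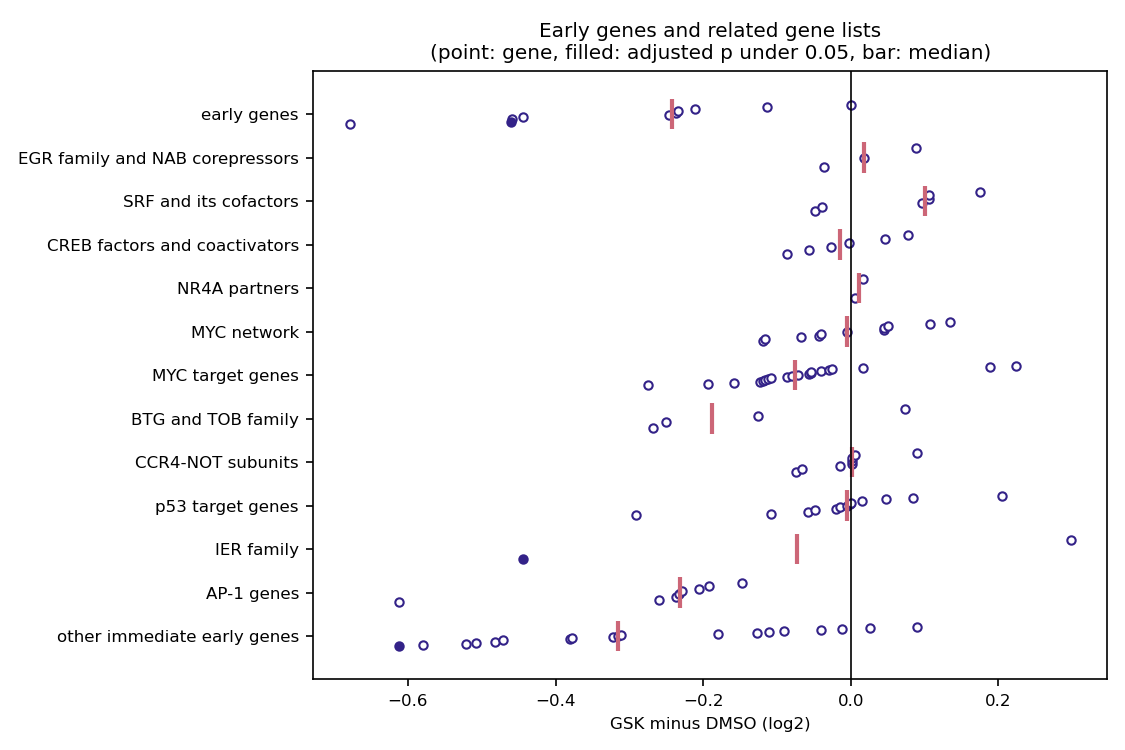
Change of each tested gene (GSK minus DMSO, log2, horizontal axis) in the early genes and 12 related lists; points are genes, filled where the adjusted p was under 0.05, and vertical bars are medians. The bars of the early genes (-0.24), AP-1 genes (-0.23) and other immediate early genes (-0.31) lie left of 0, as do those of the BTG and TOB (-0.19), MYC target (-0.08) and IER (-0.07) lists, and those of the SRF, CREB and MYC network lists lie between -0.01 and 0.10.

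The genes whose values ran most like each early gene were found by the distance between profiles, each centred on its own mean over the 4 libraries, among 11837 genes. With 4 libraries many genes lie close to any profile, so the names are a description. Nr4a1 ran nearest to Vegfd (distance 0.03, log2), Ier5 (0.04) and Ifi205 (0.05), and Nr4a3 nearest to the kinase gene Syk (0.04), Irak3 (0.07) and Zfp521 (0.08). Ier3 ran with Tgfbr3 (0.03), Gadd45b (0.03) and the progenitor marker Pi16 (0.04). Myc had no neighbour closer than Adamts1 (0.07), Hspa1b (0.08) and Fgf7 (0.09). Egr1 ran with Fam129a (0.01), the chaperone gene Hsp90aa1 (0.03) and Mcub (0.04), Egr2 with Tmem258 (0.01), Rpl14-ps1 (0.01) and Fip1l1 (0.02), and Egr3 with Ftl1-ps1 (0.02), Fgf18 (0.02) and Bmp3 (0.03). Nr4a2 ran with Nhsl1 (0.02), Mrgprf (0.02) and Lrrc32 (0.03), Btg2 with Serpinb6a (0.01), Sod2 (0.02) and H2-Q7 (0.02), and Ier2 with Ercc6l (0.01), Rras2 (0.01) and Eps15 (0.01).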

How the data were processed

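The authors deposited normalised values on a log2 scale for 22456 Ensembl mouse genes in 4 libraries, grouped as DMSO and GSK by the labels. DESeq2 1.12.4, Bowtie2, RSEM 1.2.29, GRCh38 and mm10 appear in the submitters' processing notes without roles, and the transformation was not given in the sources used here. Per the labels' protocols, fibroblasts were isolated by 2 rounds of magnetic depletion. Symbols (22335 identifiers matched) came from GENCODE M21. Genes whose mean reached log2 of 10 (14548) were fitted with limma 3.58.1 in R 4.3.3: group only, variance prior following the mean, two-sided tests, Benjamini-Hochberg adjustment over all tested genes, threshold 0.05. The script was tested on simulated data. SE is limma's moderated standard error; folds raise 2 to the log2 difference. Levels per length subtract log2 of the summed exon length in kilobases. Transcripts were aligned with blastn 2.17.0. Promoters come from RefSeq (GRCm38.p6). Alternatives were other filters, scalings and variance priors, the replicate number as a block, and each library left out. The rule named the 10 genes, up to 3 genes of smallest p and every called gene of each list, and 3 most alike genes per early gene. The genes and lists were chosen with earlier results of these data known.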

Additional observations from a re-analysis of the deposited data

How the results depend on the processing

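The number of genes past the threshold, 41 (22 higher and 19 lower in GSK), depended on the setting. It was 1 with no filter on low values (0 higher, 1 lower), 11 with a variance prior without trend (5 and 6), 23 after quantile normalisation (11 and 12), 126 after centring each library on its median (61 and 65) and 138 with a robust prior (63 and 75). With each library left out it ran from 7 without DMSO library 1 to 194 without DMSO library 2 (4 to 72 higher, 3 to 122 lower), the lone library of a group being assumed to vary like the other group. Of the 10 early genes, 1 passed as reported, 0 with the filter dropped or raised to a mean of log2 of 50, after quantile normalisation or without trend, 3 after median centring or with a robust prior, and 0 to 3 with each library left out. Their median change of -0.24 ran from -0.334 to -0.258 with each library left out, and moved by less than the spread of the list between replicates in the other alternatives. The labels do not say whether libraries of the same number are paired, so a pairing is undecided. Over 14548 genes the deviations of same-numbered libraries correlated at 0.428, with 2 pairs. With the replicate number as a block 1374 genes passed (661 higher, 713 lower), 8 of the 10 early genes among them. Estimates near 0 changed sign: Ier2 was at 0.0041 after quantile normalisation and from -0.072 to 0.072 with each library left out. With each library left out, Rxra ran from -0.054 to 0.064, Rxrb from -0.000703 to 0.0345, Nab2 from -0.0055 to 0.041, Cnot6l from -0.0059 to 0.187 and Egr4 from -0.109 to 0.036. Read depth is unknown, so counting error could not be set apart from other spread.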

Other observations

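Within DMSO, the early genes also differed between libraries in a shared direction: 9 of the 10 were higher in library 1 than in library 2, beside 50.4% of all tested genes, and DMSO library 1 was the highest of the 4 libraries for those 9. In GSK they divided, with 6 of the 10 higher in library 1, beside 50.5% of all tested genes. Egr1, Nr4a1, Ier2, Ier3, Btg2 and Myc were higher in library 1 of both groups, while Nr4a2, Nr4a3 and Egr2 were higher in library 1 of DMSO and library 2 of GSK. The mean of the 10 genes was 11.46 and 11.37 (log2) in DMSO and 11.14 and 11.07 in GSK.

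Egr1 and Btg2 followed each other most closely of the 45 pairs of early genes. On the uncorrected log2 scale Egr1 stood 2.726 and 2.762 above Btg2 in DMSO and 2.715 and 2.704 above it in GSK, a range of 0.058, although each gene alone ranged over more than 0.4. The most variable distance was that between Egr2 and Myc, where Egr2 minus Myc was -0.763 and -0.648 in DMSO and -0.283 and 0.003 in GSK.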
